A study of Homo sapiens with 12 samples.

Results

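Type IV collagen is the network-forming collagen of basement membranes, and its chains are encoded by 6 human genes, COL4A1, COL4A2, COL4A3, COL4A4, COL4A5 and COL4A6. The genes were taken by symbol, and 6 of 6 were found among the 27968 genes of each deposited table. They were measured by RNA sequencing of 12 libraries in 4 groups of 3. The A549 3D libraries were from A549, a human lung adenocarcinoma line, grown inside Matrigel, with RNA taken on day 4. Matrigel is a basement membrane extract of a mouse tumour, and type IV collagen protein is among its main components. The A549 2D libraries were from the same line on a flat surface, with RNA taken at about 80% confluence. The MDA-MB-231 3D libraries were from MDA-MB-231, a human breast cancer line, in Matrigel on day 4, and the MDA-MB-231 2D libraries were from that line at about 80% confluence. Every group was kept in DMEM with 10% FBS, and the labels name no gene change and no drug for either line. Each line stands for 1 tumour, and the stage of harvest differs along with the culture. The study asked which genes in cancer cells respond to extracellular matrix. The labels do not state that libraries of a group are separate cultures. The p-values therefore speak only to the spread among these libraries, which may be technical and which the edgeR tests pool over the groups.

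Type IV collagen chains wind into triple helices of 3 kinds. Chains from COL4A1 and COL4A2 form the helix of nearly all basement membranes. Chains from COL4A3, COL4A4 and COL4A5 form the helix of the mature kidney glomerulus, the alveolus of the lung and a few other sites. COL4A5 and COL4A6 chains form another helix under skin, smooth muscle and some epithelia. Helices join end to end through their C-terminal domains and form the sheet to which laminins, nidogens and perlecan attach. Mutations in COL4A3, COL4A4 or COL4A5 cause Alport syndrome, and mutations in COL4A1 or COL4A2 cause disease of small blood vessels.

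The 6 genes lie in the genome as 3 pairs, each transcribed in opposite directions from neighbouring start sites. In RefSeq, on the build GRCh38.p14, the start sites of COL4A1 and COL4A2 on chromosome 13 are 127 bases apart. Those of COL4A3 and COL4A4 on chromosome 2 are 419 bases apart. On chromosome X the start of COL4A5 lies 380 bases from a first start of COL4A6 and 1416 bases from a second one. The windows are printed for COL4A2, whose gene moved with its partner in both lines, and for COL4A5 and COL4A6, whose ratio shifted in opposite directions in the 2 lines. Each runs from 250 bases before to 50 bases after the start site, 5′ to 3′ on the gene's own strand. Capitals mark matches, on either strand, to any of the 6 motifs that were searched.
COL4A2, chr13:110307034-110307333, plus strand: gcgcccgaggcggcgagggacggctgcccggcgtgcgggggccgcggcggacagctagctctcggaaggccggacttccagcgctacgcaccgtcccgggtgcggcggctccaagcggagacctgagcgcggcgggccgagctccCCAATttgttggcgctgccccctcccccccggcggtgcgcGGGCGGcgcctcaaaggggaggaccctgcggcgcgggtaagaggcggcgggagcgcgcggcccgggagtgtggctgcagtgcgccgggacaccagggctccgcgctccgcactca
COL4A5, chrX:108439588-108439887, plus strand: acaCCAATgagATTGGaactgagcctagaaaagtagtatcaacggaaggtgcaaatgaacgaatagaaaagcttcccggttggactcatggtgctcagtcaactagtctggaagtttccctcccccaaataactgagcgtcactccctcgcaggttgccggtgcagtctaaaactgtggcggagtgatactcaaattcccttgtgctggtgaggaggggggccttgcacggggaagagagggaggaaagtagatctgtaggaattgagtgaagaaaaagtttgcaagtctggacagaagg
COL4A6, first start, chrX:108439409-108439708, minus strand: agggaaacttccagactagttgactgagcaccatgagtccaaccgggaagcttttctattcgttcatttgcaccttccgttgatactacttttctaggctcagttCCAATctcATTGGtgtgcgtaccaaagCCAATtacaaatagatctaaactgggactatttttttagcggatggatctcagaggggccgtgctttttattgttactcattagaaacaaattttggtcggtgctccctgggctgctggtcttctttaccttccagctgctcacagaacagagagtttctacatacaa
COL4A6, second start, chrX:108438373-108438672, minus strand: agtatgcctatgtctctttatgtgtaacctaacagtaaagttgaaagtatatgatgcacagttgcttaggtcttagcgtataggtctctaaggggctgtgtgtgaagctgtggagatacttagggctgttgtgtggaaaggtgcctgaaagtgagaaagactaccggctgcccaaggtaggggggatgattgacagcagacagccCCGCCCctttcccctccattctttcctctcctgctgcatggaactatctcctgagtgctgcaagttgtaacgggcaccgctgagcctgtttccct

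The COL4A2 window shares 226 bases with the window of COL4A1 on the opposite strand (chr13:110307108-110307407, minus strand). COL4A5 shares 121 bases with the window at the first COL4A6 start and none with that at the second. For COL4A3 (chr2:227164374-227164673, plus strand) and COL4A4 (chr2:227164156-227164455, minus strand) the shared stretch is 82 bases. The pair on chromosome 13 is rich in G and C, with a GC content of 76.7% in the COL4A1 window and 77.7% in the COL4A2 window, and each holds 45 CpG dinucleotides. Over all RefSeq windows the median GC content was 58.7% and the median number of CpG dinucleotides was 14. The pair on chromosome X lies on the other side of that median, with a GC content of 49.3% for COL4A5, and 43.7% at the first COL4A6 start, and with 8 and 7 CpG dinucleotides. COL4A3 had a GC content of 67.7% and COL4A4 of 74.0%.

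The motifs searched were the GC box GGGCGG, the CCAAT box CCAAT, the TATA box TATAAA, the AP-1 site TGANTCA, the TEAD site GGAATG and the E2-box CACCTG, on both strands. No match overlapped a match of another motif. A GC box was found in the windows of COL4A1, COL4A2 and COL4A3 and at the second COL4A6 start, and 45.0% of 35116 RefSeq windows hold one. A CCAAT box was found in the windows of COL4A1, COL4A2 and COL4A5 and at the first COL4A6 start, against 34.6% of all windows. An E2-box was found in the windows of COL4A3 and COL4A4, against 20.6% of all windows. Where windows overlap, 1 site can count for both genes. The E2-box of COL4A3 and COL4A4 is 1 site in their shared stretch, and so are the CCAAT box of COL4A1 and COL4A2 and the GC box in the COL4A2 window. The matches in the COL4A5 window are also in the window at the first COL4A6 start. The letters of the TATA box, AP-1 site and TEAD site were in none of the 7 member windows, and 11.5%, 7.71% and 14% of all windows hold them. These matches describe letters and not binding.

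Total expected counts were between 5609327 and 28171901 per library, and both extremes were A549 3D libraries. In A549, mean fragment length was 134 to 141 bases in 3D and 176 to 187 bases in 2D. In MDA-MB-231 it was 181 to 188 bases in 3D and 208 to 217 bases in 2D. Small RNA genes held 9.67 to 22.9% of A549 counts in 3D, against 1.93 to 2.03% in 2D, and 4.03 to 6.51% of MDA-MB-231 counts in 3D, against 1.15 to 1.2% in 2D. The spread of genes between libraries, as edgeR's common biological coefficient of variation, was 0.179 for A549 in 3D, against 0.0368 in 2D, and 0.0563 for MDA-MB-231 in 3D, against 0.0539 in 2D. The edgeR fit estimated spread over the 4 groups together, so SE and p for comparisons with A549 3D may be too small. Keratins of simple epithelia were abundant in all groups. CDH1, of the same epithelial list, averaged 12.5 TPM in A549 3D and 3.74 TPM in A549 2D. In MDA-MB-231, CDH1 was at 0.07 TPM in 3D and 0.703 TPM in 2D. EPCAM averaged 3.36 to 33.7 TPM over the groups. The 4 mesenchymal markers summed in A549 to 638 to 915 TPM in 3D and 702 to 728 TPM in 2D, but they moved in opposite directions. In A549, FN1 averaged 426 TPM in 3D and 26.3 TPM in 2D, and VIM averaged 300 TPM in 3D and 642 TPM in 2D. CDH2 was at 10.4 TPM in A549 3D and 35.7 TPM in A549 2D, and ZEB1 at 5.08 and 7.90 TPM. In MDA-MB-231 the 4 markers summed to 3127 to 3323 TPM in 3D and 3099 to 3154 TPM in 2D, mostly VIM. There CDH2 was under 1 TPM. All 5 lung epithelial markers (NKX2-1, surfactant proteins and NAPSA) were under 1 TPM in A549, so the tissue of origin is not visible from them. Endothelial markers, of cells that make much type IV collagen, summed to at most 0.22 TPM in the A549 libraries. For MDA-MB-231 the sum was 5.24 to 5.67 TPM in 3D and 4.91 to 5.41 TPM in 2D, mostly KDR, with CDH5 and VWF near 0. Markers of fibroblasts and mural cells summed in A549 to 13.3 to 17.6 TPM in 3D and 9.8 to 12.5 TPM in 2D. In MDA-MB-231 that sum was 11.1 to 12 TPM in 3D and 12.3 to 15.7 TPM in 2D. ACTA2 held most of it in A549, at 13.2 TPM in 3D and 7.98 TPM in 2D. Of the 8 markers, 5 averaged at least 1 TPM in MDA-MB-231 2D, with RGS5 highest at 5.03 TPM, and 3 did in MDA-MB-231 3D. In A549 it was 2 in each culture. DCN was at 0 in every library. The leukocyte list summed in A549 to 10.3 to 15.2 TPM in 3D and 1.82 to 1.99 TPM in 2D. The same list summed in MDA-MB-231 to 20.9 to 22.7 TPM in 3D and 3.85 to 4.32 TPM in 2D. Most of that sum was CD14, and CD3E was at or near 0. The part of fragment length, small RNA and these markers in the results on collagen genes was not tested.

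On the per-length scale the chains differed widely in level. In A549 2D the order of TPM was COL4A2 at 67.2 ± 4.60, COL4A1 at 39.1 ± 2.89, COL4A6 at 17.7 ± 0.478, COL4A5 at 12.9 ± 1.03, COL4A4 at 2.43 ± 0.226 and COL4A3 at 1.25 ± 0.0833 (SD, n = 3 each). No neighbours in that order overlapped between libraries. In A549 3D the order was COL4A5 at 11.4 ± 2.05, COL4A6 at 8.07 ± 2.20, COL4A2 at 2.46 ± 1.07, COL4A4 at 1.93 ± 0.327, COL4A3 at 1.04 ± 0.0557 and COL4A1 at 0.69 ± 0.312 TPM (SD, n = 3 each). There the ranges of COL4A5 and COL4A6, of COL4A2 and COL4A4, and of COL4A3 and COL4A1 overlapped. In A549, COL4A1 thus stood last among the 6 genes in 3D and second in 2D.

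In MDA-MB-231 3D the order of TPM was COL4A2 at 26.3 ± 0.987, COL4A5 at 14.8 ± 0.352, COL4A1 at 5.29 ± 0.114, COL4A6 at 4.43 ± 0.310, COL4A4 at 0.273 ± 0.0289 and COL4A3 at 0.0133 ± 0.00577 (SD, n = 3 each). No neighbours overlapped. In MDA-MB-231 2D it was COL4A2 at 65.1 ± 3.25, COL4A1 at 26.8 ± 0.528, COL4A5 at 4.46 ± 0.146, COL4A6 at 0.587 ± 0.0757, COL4A4 at 0.537 ± 0.0379 and COL4A3 at 0.05 ± 0.0361 TPM (SD, n = 3 each). Only COL4A6 and COL4A4 overlapped in that group. COL4A3 had at most 6 counts in any MDA-MB-231 library, and it passed the filter on low counts through the A549 libraries.

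**Figure D1:**
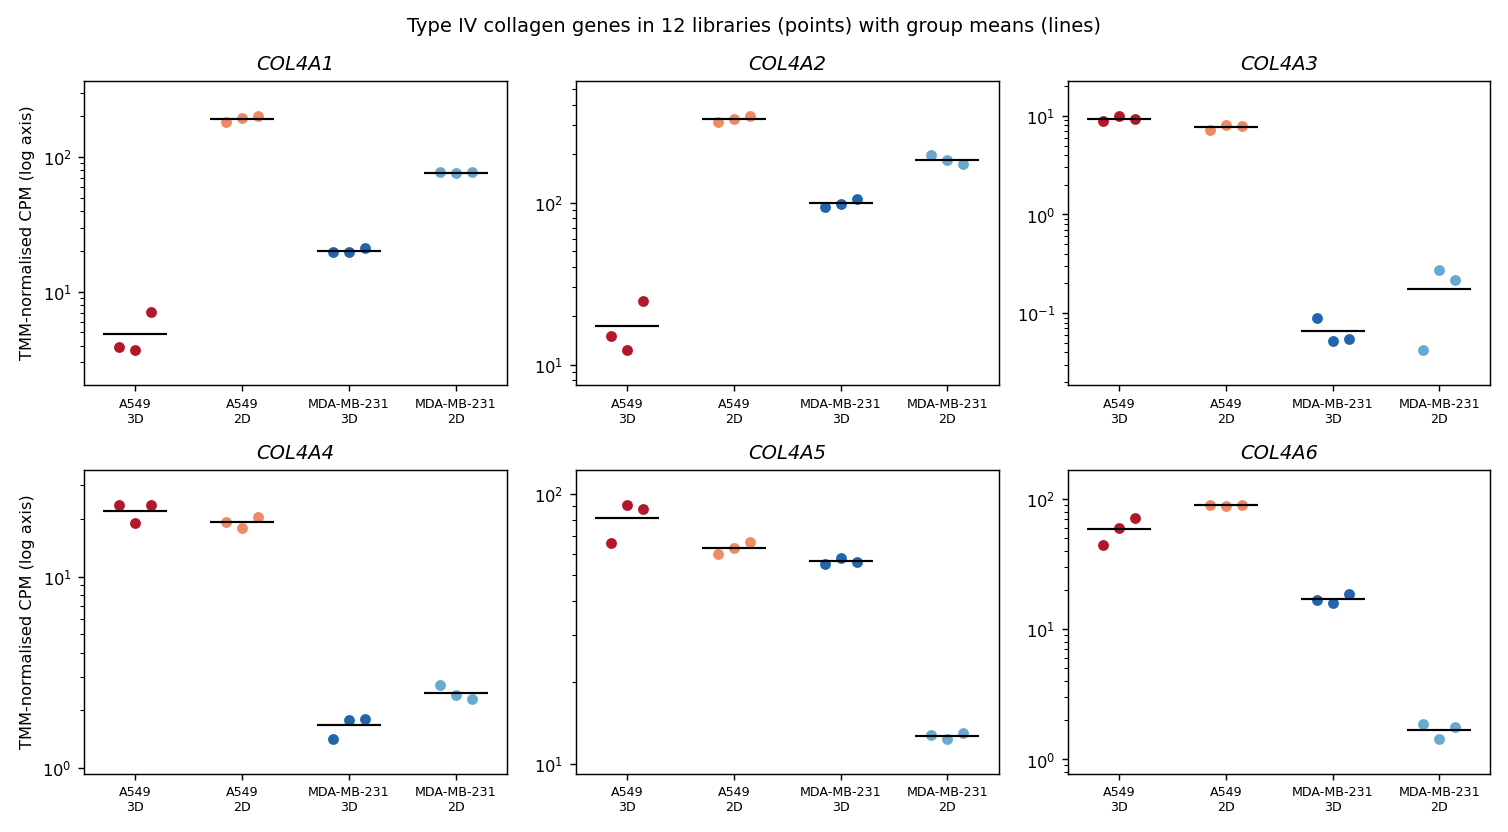
TMM-normalised CPM (log axis) of each type IV collagen gene in each of the 12 libraries, by group; points are libraries and lines are means of 3. COL4A1 and COL4A2 were lower in 3D in both lines, and COL4A5 and COL4A6 were higher in 3D in MDA-MB-231, where COL4A6 averaged 17.1 CPM in 3D and 1.69 CPM in 2D.

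In A549 cells, COL4A1 and COL4A2 fell steeply in Matrigel, COL4A6 fell moderately, and COL4A5 rose slightly on the CPM scale but on the TPM scale was lower, short of the threshold. COL4A3 and COL4A4, which pair with COL4A5 chains in specialised basement membranes, did not pass the test. Of the 6 genes, 1 was called higher and 3 were called lower, where 34.1% of the 15304 genes tested were called higher and 31.5% lower. With limma on log2(TPM + 1) the split was 0 higher and 4 lower, where 14.4% of genes were called higher and 59.3% lower. Under RLE or upper-quartile scaling it was 2 higher and 3 lower, where 35.5% of genes were called higher and 30.1% lower. On TPM rescaled without genes of small RNA it was 0 higher and 3 lower, where 25.7% of genes were called higher and 41.6% lower. In the CPM fit the median log2 fold change was −0.18 over the 6 genes and 0.03 over all genes tested. Levels compared between groups are in CPM, library-scaled counts after TMM, and fold changes, SE and adjusted p are from edgeR. In bulk RNA, fewer cells expressing a gene and less RNA per cell cannot be told apart.

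COL4A1 encodes the chain present in 2 copies in the common helix. Its level was 3.89, 3.71 and 7.10 CPM in the 3 A549 3D libraries, against 183, 194 and 201 CPM in the A549 2D libraries. The groups were far apart, and the highest A549 3D value came from the deepest library. The log2 fold change was −5.10 ± 0.15 (SE, edgeR adjusted p = 6.13e-13), a level 34.2-fold lower in A549 3D. Of all genes tested, 1.34% had an absolute change at least as large. The A549 3D values rest on 31, 19 and 180 expected counts.

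COL4A2, the partner chain of the common helix, had 14.9, 12.3 and 24.6 CPM in A549 3D, against 315, 326 and 342 CPM in A549 2D. Here too the groups did not overlap. Its log2 fold change was −4.13 ± 0.17 (SE, edgeR adjusted p = 1.40e-11), a level 17.5-fold lower, and 2.32% of all genes tested had a change at least as large.

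COL4A6 had 44.8, 60.0 and 72.2 CPM in A549 3D, against 90.4, 89.1 and 89.3 CPM in A549 2D. Every 3D library lay below every 2D library, with a wider spread in 3D. The log2 fold change was −0.58 ± 0.13 (SE, edgeR adjusted p = 7.77e-04).

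COL4A5, a chain of both the kidney-type helix and the helix with COL4A6, had 65.8, 91.2 and 87.9 CPM in A549 3D, against 59.8, 63.2 and 66.6 CPM in A549 2D. The lowest 3D library lay inside the 2D range. The log2 fold change was 0.37 ± 0.10 (SE, edgeR adjusted p = 0.00448). Its direction depended on the scale, since on log2(TPM + 1) the COL4A5 difference was −0.17 (limma adjusted p = 0.179). On that TPM scale the median of all genes was −0.44 in A549, against 0.03 in the CPM fit, and COL4A5 stood 0.26 above that median. With genes of small RNA taken out and TPM rescaled, its difference was 0.20 (limma adjusted p = 0.0995).

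COL4A3 had 8.90, 9.96 and 9.23 CPM in A549 3D, against 7.24, 8.03 and 7.87 CPM in A549 2D, a log2 fold change of 0.27 ± 0.16 (SE, edgeR adjusted p = 0.147). COL4A4 had 23.6, 18.9 and 23.7 CPM in A549 3D, against 19.3, 17.9 and 20.4 CPM in A549 2D, with overlap between the groups. Its log2 fold change was 0.23 ± 0.10 (SE, edgeR adjusted p = 0.0647). COL4A4 passed the threshold without the second A549 3D library (0.30, edgeR adjusted p = 0.00963) and under RLE scaling (0.25, edgeR adjusted p = 0.0341). On log2(TPM + 1) both genes were lower in A549 3D, COL4A3 at −0.14 (limma adjusted p = 0.0710) and COL4A4 at −0.23 (limma adjusted p = 0.0336), yet stood 0.29 and 0.20 above the median of all genes.

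In MDA-MB-231 cells, COL4A1 and COL4A2 again fell in Matrigel, while COL4A5 and COL4A6 rose several-fold. COL4A4 fell at a low level, and COL4A3 was close to the limit of detection. Of the 6 genes, 2 were called higher and 3 lower, where 33.4% of all genes tested were called higher and 34.2% lower. The members' split was the same on log2(TPM + 1), where 17.5% of genes were called higher and 50.4% lower. In the CPM fit the median log2 fold change was −0.53 over the 5 genes without COL4A3, and 0 over all genes tested. With COL4A3, which had few counts in this line, the median was −0.72 over the 6 genes.

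COL4A1 had 19.7, 19.8 and 21.0 CPM in MDA-MB-231 3D, against 77.2, 75.6 and 77.6 CPM in MDA-MB-231 2D. Its log2 fold change was −1.92 ± 0.12 (SE, edgeR adjusted p = 3.64e-09), a level 3.80-fold lower. For COL4A2 the values were 94.1, 98.0 and 105 CPM in MDA-MB-231 3D, against 196, 184 and 174 CPM in MDA-MB-231 2D. Neither gene overlapped between the cultures, and the fall of COL4A2 was the smaller, at −0.90 ± 0.14 on the log2 scale (SE, edgeR adjusted p = 3.45e-05), or 1.86-fold.

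COL4A5 had 55.2, 57.7 and 56.0 CPM in MDA-MB-231 3D, against 12.8, 12.4 and 13.0 CPM in MDA-MB-231 2D. The log2 fold change was 2.15 ± 0.11 (SE, edgeR adjusted p = 5.20e-10), a level 4.43-fold higher. COL4A6 had 16.7, 15.9 and 18.6 CPM in MDA-MB-231 3D, against 1.86, 1.45 and 1.78 CPM in MDA-MB-231 2D. The libraries of the cultures were far apart for both genes. The COL4A6 log2 fold change was 3.32 ± 0.19 (SE, edgeR adjusted p = 1.18e-09), a level 10.0-fold higher, and 1.45% of all genes tested had an absolute change at least as large. On log2(TPM + 1) the COL4A6 difference was 1.78 and that of COL4A5 was 1.54, where the median of all genes was −0.29. COL4A6 averaged 0.587 TPM in MDA-MB-231 2D, below the 1 that is added, so that scale shrinks its difference.

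COL4A4 had 1.42, 1.78 and 1.81 CPM in MDA-MB-231 3D, against 2.70, 2.39 and 2.30 CPM in MDA-MB-231 2D. Its log2 fold change was −0.53 ± 0.18 (SE, edgeR adjusted p = 0.0137). The call was lost without the first 2D library (edgeR adjusted p = 0.0517) and without the first 3D library (edgeR adjusted p = 0.0520). COL4A3 had 1, 1 and 1 expected counts in MDA-MB-231 3D, against 1, 6 and 5 in MDA-MB-231 2D. Scaled to library size, the pooled counts were 2.82-fold higher in 2D, with a 95% counting interval from 0.761 to 15.6, and the edgeR adjusted p was 0.108. Without the first 2D library COL4A3 passed the threshold (edgeR adjusted p = 0.0328).

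**Figure D2:**
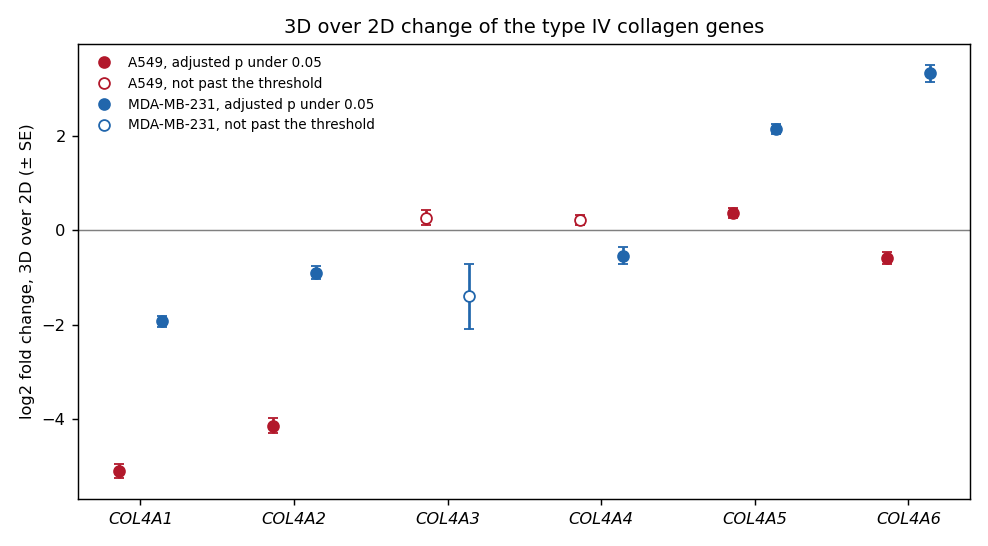
Log2 fold change, 3D over 2D, of each type IV collagen gene in A549 and MDA-MB-231, with bars for the standard error; filled points passed an adjusted p of 0.05 and open points did not. COL4A1 and COL4A2 lie below 0 in both lines, COL4A6 lies at −0.58 in A549 and at 3.32 in MDA-MB-231. The slight rise of COL4A5 in A549 turned below 0 on the log2(TPM + 1) scale.

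The 3D change of the type IV collagen genes was then compared between lines by the interaction term, the log2 change in A549 minus that in MDA-MB-231. COL4A3 was left out of these counts, since it passed the filter on low counts through the A549 libraries alone. Of the other 5 genes, 1 was called with a higher and 4 with a lower change in A549, where 29.3% of all genes tested were called higher and 26.7% lower. The split was 0 higher and 4 lower on log2(TPM + 1), where 28.0% of genes were called higher and 34.7% lower. After rescaling without small RNA it was also 0 higher and 4 lower, where 40.0% of genes were called higher and 24.3% lower. In the CPM fit the median difference was −3.17 over the 5 genes and 0.07 over all genes tested. COL4A1 fell further in A549, with a difference of −3.17 ± 0.19 on the log2 scale (SE, edgeR adjusted p = 3.68e-09), and so did COL4A2, at −3.23 ± 0.21 (SE, edgeR adjusted p = 8.49e-09). COL4A5 differed by −1.78 ± 0.15 (SE, edgeR adjusted p = 1.07e-07) and COL4A6 by −3.91 ± 0.23 (SE, edgeR adjusted p = 2.24e-09). For COL4A6 the sign itself differed, lower in 3D in A549 and higher in 3D in MDA-MB-231. COL4A4 differed by 0.76 ± 0.20 (SE, edgeR adjusted p = 0.00491), a call that was lost on log2(TPM + 1) at 0.04 (limma adjusted p = 0.814) and after rescaling without small RNA at 0.30 (limma adjusted p = 0.0584). COL4A4 averaged 0.273 TPM in MDA-MB-231 3D and 0.537 TPM in MDA-MB-231 2D, levels at which adding 1 shrinks a difference. In MDA-MB-231 the COL4A3 counts were 3 in all in 3D and 12 in 2D, and its change was not compared between the lines.

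The balance of the chains within each library was read from TPM, which counts transcripts per length. In A549 the 6 genes summed to 20.8, 24.5 and 31.5 TPM in 3D, against 133, 138 and 151 TPM in 2D. In MDA-MB-231 they summed to 50.2, 50.9 and 52.3 TPM in 3D, against 101, 96.3 and 95.3 TPM in 2D. The sums did not overlap between cultures in either line, and each exact two-sided permutation test gave p = 0.1, the smallest that 3 against 3 libraries allow. COL4A1 and COL4A2 together held 12.1 ± 3.18% of the sum in A549 3D and 75.6 ± 0.450% in A549 2D (SD, n = 3 each). In MDA-MB-231 their share was 61.7 ± 0.780% in 3D and 94.2 ± 0.268% in 2D (SD, n = 3 each). COL4A5 and COL4A6 together held 76.1 ± 4.06% in A549 3D and 21.8 ± 0.422% in A549 2D (SD, n = 3 each). The share of COL4A5 and COL4A6 in MDA-MB-231 was 37.7 ± 0.797% in 3D and 5.18 ± 0.271% in 2D (SD, n = 3 each). COL4A3 and COL4A4 held 11.9 ± 2.28% in A549 3D and 2.62 ± 0.0705% in A549 2D (SD, n = 3 each). In MDA-MB-231 their share was 0.560 ± 0.0373% in 3D and 0.602 ± 0.0195% in 2D, with overlap.

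In both lines the transcripts of the pair on chromosome X took a larger share in 3D, by 54.3 percentage points in A549 and by 32.6 percentage points in MDA-MB-231, with no overlap between cultures (exact permutation p = 0.1 each). In A549 the mean TPM of all 6 genes was lower in 3D, and least so for COL4A3, COL4A4 and COL4A5. In MDA-MB-231 the TPM of COL4A5 and COL4A6 was higher in 3D and that of the other 4 genes was lower.

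**Figure D3:**
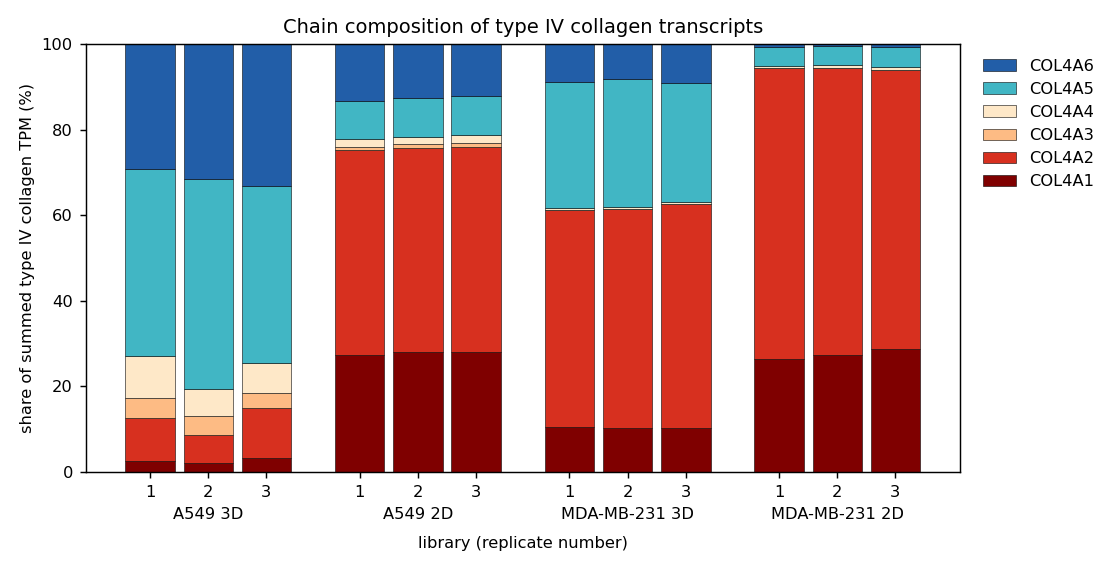
Share (%) of the summed TPM of the 6 type IV collagen genes held by each gene in each of the 12 libraries. COL4A1 and COL4A2 (reds) hold 12.1% on average in A549 in 3D, against 75.6% in 2D, while in MDA-MB-231 they hold 61.7% in 3D, against 94.2% in 2D.

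Within the pair on chromosome 13, COL4A2 exceeded COL4A1 per length in every library, and by more in 3D. The ratio of COL4A2 to COL4A1 TPM was 3.92, 3.35 and 3.50 in A549 3D, against 1.74, 1.69 and 1.71 in A549 2D. In MDA-MB-231 the ratio was 4.83, 5 and 5.04 in 3D, against 2.57, 2.45 and 2.27 in 2D. The mean ratio was thus higher in 3D by 1.06 on the log2 scale in A549 and by 1.03 in MDA-MB-231, without overlap (exact permutation p = 0.1 each). Between lines the ratio was lower in A549, with log2 differences of −0.47 in 3D and −0.50 in 2D, also without overlap (exact permutation p = 0.1 each).

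Within the pair on chromosome X the ratio of COL4A5 to COL4A6 TPM moved in opposite directions. It was 1.5, 1.56 and 1.25 in A549 3D, against 0.680, 0.728 and 0.767 in A549 2D, so the more abundant transcript was COL4A5 in 3D and COL4A6 in 2D. It was 3.35, 3.69 and 3.06 in MDA-MB-231 3D, against 6.94, 8.64 and 7.44 in MDA-MB-231 2D. The log2 difference of the COL4A5 to COL4A6 ratio was 0.98 in A549 and −1.19 in MDA-MB-231, with no overlap between cultures in either line (exact permutation p = 0.1 each). The difference between those differences was not tested. For COL4A3 and COL4A4 the ratio was 0.551 ± 0.106 in A549 3D and 0.517 ± 0.0516 in A549 2D (SD, n = 3 each; exact permutation p = 0.6). In MDA-MB-231 the COL4A3 counts were too few for a ratio to be read.

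**Figure D4:**
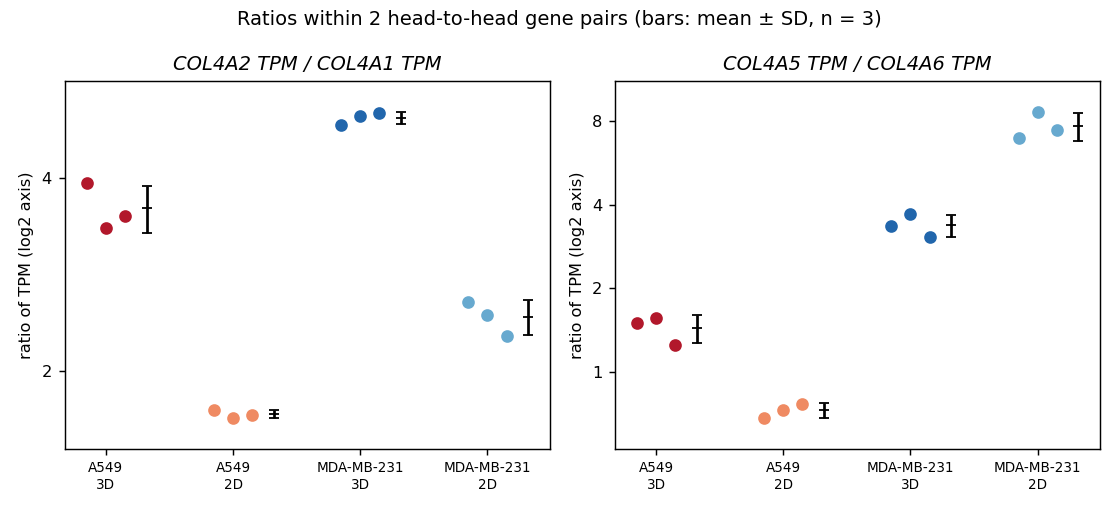
Ratio of TPM (log2 axis) of COL4A2 to COL4A1 and of COL4A5 to COL4A6 in each of the 12 libraries; points are libraries and bars are the mean ± SD of 3. The COL4A2 to COL4A1 ratio is higher in 3D in both lines, at 3.59 in 3D and 1.72 in 2D in A549, whereas the COL4A5 to COL4A6 ratio is higher in 3D in A549 and lower in 3D in MDA-MB-231.

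How reads from the overlap of COL4A1 and COL4A2 were placed is not known. The expected counts of both genes were whole numbers in every library. In GENCODE v29 the COL4A1 and COL4A2 genes overlap on opposite strands, and the strand setting of the counting is not given in the sources used here. The antisense genes COL4A2-AS1 and COL4A2-AS2 had at most 3 and 1 expected counts in any library. The deposited mean transcript length of COL4A1, which has 2 transcripts in the tables, was 6545 bases in all 3D libraries and as low as 6511 bases in A549 2D. COL4A6, with 5 transcripts, ranged from 6588 to 6690 bases.

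Between the lines, A549 held more of every type IV collagen transcript in 2D on the CPM scale. COL4A3 had 422 expected counts over the A549 2D libraries, against 12 over the MDA-MB-231 2D libraries, and is left out of the counts and tests between lines, having passed the filter through A549 alone. In 2D, 5 of the other 5 genes were called higher in A549 and 0 lower, where 42.8% of all genes tested were called higher and 38.8% lower. For TPM on the log2(TPM + 1) scale it was 4 higher and 0 lower, where 19.5% of genes were called higher and 64.5% lower. In the CPM fit the median log2 fold change was 2.31 over the 5 genes and 0.07 over all genes tested. COL4A6 differed most, with a mean of 89.6 ± 0.712 CPM in A549 2D and 1.69 ± 0.219 CPM in MDA-MB-231 2D (SD, n = 3 each), a log2 fold change of 5.72 ± 0.17 (SE, edgeR adjusted p = 8.22e-14). COL4A4 differed by 2.96 ± 0.12 on the log2 scale (SE, edgeR adjusted p = 3.25e-12). COL4A5 differed by 2.31 ± 0.11 (SE, edgeR adjusted p = 1.44e-11), COL4A1 by 1.33 ± 0.11 (SE, edgeR adjusted p = 1.72e-08) and COL4A2 by 0.83 ± 0.14 (SE, edgeR adjusted p = 4.26e-05). The COL4A2 call was lost on log2(TPM + 1), where the difference was 0.04 (limma adjusted p = 0.804) and the median of all genes was −0.66. With genes of small RNA taken out and TPM rescaled, the COL4A2 difference was 0.62 (limma adjusted p = 0.00143) and the median of all genes was −0.13.

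In 3D the 2 genes of the common helix were lower in A549. COL4A4, COL4A5 and COL4A6 were higher in A549 on the CPM scale, and of these COL4A5 was lower on the TPM scale. Of the 5 genes without COL4A3, 3 were called higher and 2 lower, where 43.9% of all genes tested were called higher and 39.2% lower, and the median log2 fold change was 0.54 over the 5 genes and 0.10 over all. The TPM scale gave 2 higher and 3 lower, where 21.4% of genes were called higher and 66.0% lower. COL4A1 averaged 4.90 ± 1.91 CPM in A549 3D and 20.2 ± 0.731 CPM in MDA-MB-231 3D (SD, n = 3 each), a log2 fold change of −1.84 ± 0.16 (SE, edgeR adjusted p = 2.11e-08). COL4A2 averaged 17.3 ± 6.46 CPM in A549 3D and 99.0 ± 5.41 CPM in MDA-MB-231 3D (SD, n = 3 each), a log2 fold change of −2.41 ± 0.16 (SE, edgeR adjusted p = 1.04e-09). COL4A1 and COL4A2 therefore ranked A549 above MDA-MB-231 in 2D and below it in 3D on the CPM scale.

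COL4A3 had 356 expected counts over the A549 3D libraries, against 3 over the MDA-MB-231 3D libraries, and its difference between lines is not read. COL4A4 was higher in A549 3D by 3.72 ± 0.14 on the log2 scale (SE, edgeR adjusted p = 1.13e-12) and COL4A6 by 1.81 ± 0.14 (SE, edgeR adjusted p = 5.18e-09). COL4A5 was higher by 0.54 ± 0.10 (SE, edgeR adjusted p = 1.53e-04), but on log2(TPM + 1) it was lower in A549 3D, at −0.37 (limma adjusted p = 0.00769). The median of all genes was −0.77 on that TPM scale, and with genes of small RNA taken out and TPM rescaled the COL4A5 difference was 0.52 (limma adjusted p = 3.20e-04).

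The genes whose profile over the 12 libraries was most like that of each collagen gene were ranked by the root-mean-square difference of log2 CPM, each gene centred on its own mean. These are descriptions over 4 groups that share libraries, with no test. Closest to COL4A1 was TAGLN, the actin-binding protein transgelin, at 0.379 log2 units, and COL4A2 at 0.572, PMEPA1 at 0.955 and BCAT1 at 0.975 were also among its 5 closest. The 5 closest to COL4A2 included BCAT1 at 0.535, LIF at 0.567, COL4A1 at 0.572 and EPHB2 at 0.576. So each gene of the pair on chromosome 13 was among the 5 closest to the other. That was not so on chromosome X, where COL4A5 and COL4A6 differed by 1.26 log2 units. The 5 genes closest to COL4A5 were LAGE3 at 0.223, DHRS4L2, UNC93B1, SDF2L1 and PPP2R2C, the last at 0.279. For COL4A6 they were HMOX1 at 0.539, HKDC1, TRIM16, TRIM16L and GPRC5C, the last at 0.767, and TRIM16 and TRIM16L are close copies whose reads may be shared. COL4A4 was closest to RHPN2 at 0.172, ADA, AKR1B1, MATN3 and PAQR5. COL4A3 had at most 6 counts in any MDA-MB-231 library. Its profile is therefore mainly the step between the lines, and the genes closest to it are not read.

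Genes that act on type IV collagen protein were read from 6 lists, with counts over the members tested. Of all genes tested, 34.1% were called higher and 31.5% lower in A549 3D, and 14.4% and 59.3% on log2(TPM + 1). In MDA-MB-231 3D the shares were 33.4% higher and 34.2% lower, and 17.5% and 50.4% on log2(TPM + 1). Collagen chains are hydroxylated, glycosylated and folded in the endoplasmic reticulum before they leave it. Of 18 folding and modification genes, 6 were higher and 7 lower in A549 3D, with a median log2 fold change of 0.12, against 0.03 for all genes. The A549 split was 0 higher and 12 lower on log2(TPM + 1), a share of lower genes near the 59.3% of all genes on that scale. In MDA-MB-231 3D, 10 were higher and 6 lower, with a median of 0.55, against 0 for all genes, and on log2(TPM + 1) 7 were higher and 6 lower. P4HA3, a catalytic subunit of prolyl 4-hydroxylase, fell by 1.98 ± 0.12 on the log2 scale in A549 3D (SE, edgeR adjusted p = 1.91e-09). COLGALT1, which adds galactose to hydroxylysine, fell by 0.73 ± 0.11 in A549 (SE, edgeR adjusted p = 2.46e-05) and rose by 1.05 ± 0.10 in MDA-MB-231 (SE, edgeR adjusted p = 3.30e-07). P4HB, the other subunit of prolyl 4-hydroxylase, rose in MDA-MB-231 by 1.44 ± 0.08 (SE, edgeR adjusted p = 1.58e-09), and PLOD1, a lysyl hydroxylase, rose there by 1.38 ± 0.08 (SE, edgeR adjusted p = 2.22e-09).

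The export list holds genes of the packing of procollagen into large COPII carriers, and also the chaperone gene HSPA5. Of its 16 symbols 15 were in the tables, and the other, SEC12, is a second name of PREB, which was tested. In A549 3D, 7 were higher and 3 lower, with a median of 0.22, against 0.03 for all genes. The A549 split was 2 higher and 9 lower on log2(TPM + 1). In MDA-MB-231 3D, 5 were higher and 8 lower, with a median of −0.20, against 0 for all genes, and on log2(TPM + 1) 4 were higher and 10 lower. SEC24D, a cargo-binding COPII subunit, rose by 1.25 ± 0.07 in A549 (SE, edgeR adjusted p = 4.12e-10) and by 0.60 ± 0.06 in MDA-MB-231 (SE, edgeR adjusted p = 4.45e-07). MIA2, of the family of collagen export receptors, rose by 1.25 ± 0.10 in A549 (SE, edgeR adjusted p = 2.61e-08) and fell by 1.07 ± 0.10 in MDA-MB-231 (SE, edgeR adjusted p = 2.53e-07).

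Outside the cell the network is sealed by peroxidasin, which makes sulfilimine bonds between C-terminal domains, and by lysyl oxidase-like enzymes. Of 9 crosslinking and assembly genes, 3 were higher and 2 lower in A549 3D (median 0.12, all genes 0.03). In MDA-MB-231 3D, 4 were higher and 2 lower (median 0.09, all genes 0). The 9 include COL4A3BP, also named CERT1, which was among those called lower in MDA-MB-231, at −1.04 ± 0.09 (SE, edgeR adjusted p = 1.30e-07). The split on log2(TPM + 1) was 2 higher and 5 lower in A549 and 3 higher and 4 lower in MDA-MB-231. PXDN, which encodes peroxidasin, fell by 1.29 ± 0.11 on the log2 scale in A549 3D (SE, edgeR adjusted p = 4.76e-08). LOXL2, which crosslinks the N-terminal domain of type IV collagen, fell by 2.28 ± 0.13 in A549 (SE, edgeR adjusted p = 5.71e-10) and rose in MDA-MB-231 by 1.17 ± 0.11 (SE, edgeR adjusted p = 2.59e-07). LOXL4 rose in MDA-MB-231 by 2.33 ± 0.10 (SE, edgeR adjusted p = 1.32e-10).

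Of 24 tested genes of other basement membrane components, 7 were higher and 12 lower in A549 3D (median −0.70, all genes 0.03), and 7 were higher and 7 lower in MDA-MB-231 3D (median 0.02, all genes 0). With 18 genes tested on log2(TPM + 1), 5 were higher and 11 lower in A549 and 4 higher and 6 lower in MDA-MB-231. The laminin alpha chain gene LAMA3 fell by 3.11 ± 0.11 on the log2 scale in A549 (SE, edgeR adjusted p = 4.06e-12) and rose in MDA-MB-231 by 1.1 ± 0.09 (SE, edgeR adjusted p = 6.04e-08). COL7A1, the anchoring fibril collagen, fell by 4.63 ± 0.14 in A549 (SE, edgeR adjusted p = 6.37e-13) and fell by 0.99 ± 0.13 in MDA-MB-231 (SE, edgeR adjusted p = 5.56e-06). NID1, a nidogen that links type IV collagen to laminin, fell by 1.86 ± 0.18 in A549 (SE, edgeR adjusted p = 2.02e-07), from 3.52 TPM in 2D to 0.61 TPM in 3D. Other laminin genes went the other way in A549. LAMB3 rose there by 2.12 ± 0.14 (SE, edgeR adjusted p = 2.48e-09) and LAMA4 by 2.49 ± 0.22 (SE, edgeR adjusted p = 9.63e-08). LAMA4 fell in MDA-MB-231 by 3.00 ± 0.17 (SE, edgeR adjusted p = 9.73e-10).

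Cells bind type IV collagen through integrins, discoidin domain receptors and others. Of 13 receptors tested, 3 were higher and 9 lower in A549 3D (median −0.42, all genes 0.03), and 3 were higher and 7 lower in MDA-MB-231 3D (median −0.27, all genes 0), where 31.5% and 34.2% of all genes were lower. With 12 tested on log2(TPM + 1), 3 were higher and 9 lower in A549 and 2 higher and 8 lower in MDA-MB-231. DDR1, a receptor tyrosine kinase for collagen, was among those that rose in both lines, by 1.26 ± 0.11 in A549 (SE, edgeR adjusted p = 1.25e-07) and by 0.73 ± 0.12 in MDA-MB-231 (SE, edgeR adjusted p = 6.06e-05). ITGB1, the beta subunit of the collagen-binding integrins, fell by 0.85 ± 0.13 in A549 (SE, edgeR adjusted p = 2.87e-05). ADGRG6, an adhesion receptor that binds type IV collagen, fell by 2.55 ± 0.14 in MDA-MB-231 (SE, edgeR adjusted p = 1.04e-09).

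Of 16 tested genes of degradation and its inhibitors, 6 were higher and 5 lower in A549 3D (median 0.37, all genes 0.03), and 11 were higher and 1 lower in MDA-MB-231 3D (median 1.02, all genes 0), where 33.4% of all genes were higher and 34.2% lower in MDA-MB-231. With 15 tested on log2(TPM + 1), 4 were higher and 6 lower in A549 and 8 higher and 1 lower in MDA-MB-231. The list mixes proteases with their inhibitors. MMP14, a membrane-bound metalloproteinase, rose in MDA-MB-231 by 1.69 ± 0.10 (SE, edgeR adjusted p = 1.39e-09), and the inhibitor TIMP1 rose in A549 by 1.62 ± 0.09 (SE, edgeR adjusted p = 6.50e-10) and in MDA-MB-231 by 1.16 ± 0.09 (SE, edgeR adjusted p = 2.10e-08). PLAU, urokinase, fell by 3.27 ± 0.15 in A549 (SE, edgeR adjusted p = 4.19e-11).

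**Figure D5:**
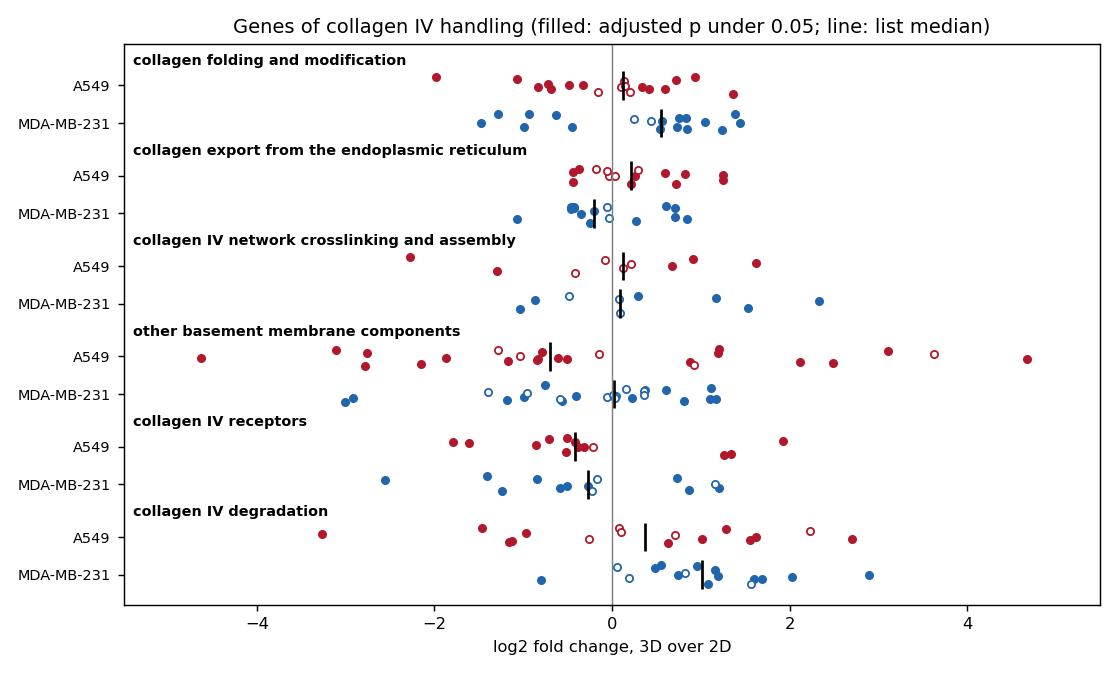
Log2 fold change, 3D over 2D, of each tested gene of the 6 lists in A549 and MDA-MB-231; filled points passed an adjusted p of 0.05 and black lines are list medians. The degradation list has its median at 1.02 in MDA-MB-231 and 0.37 in A549. On the log2(TPM + 1) scale the folding list in A549 has 0 genes called higher and 12 of 18 called lower, where 59.3% of all genes were called lower.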

How the data were processed

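RNA was sequenced from 12 libraries after ribosomal RNA removal with a stranded total RNA kit, per the labels' protocols. Gene tables were made with RSEM on hg19, per the submitters' processing notes. The RSEM version was not given in the sources used here, nor were the aligner, the annotation and the use of strand. Each deposited table holds, per the file headers, expected counts (estimates that divide shared reads among genes), TPM and FPKM for 27968 genes. Columns of other series numbered 0.

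For the count test, expected counts were made whole by rounding and filtered with filterByExpr, which left 15304 genes and all 6 members. TMM factors lay between 0.809 and 1.13. A model of 4 group means over all 12 libraries was fitted with edgeR 4.0.16 (R 4.3.3), using the quasi-likelihood test and Benjamini-Hochberg adjustment over all genes tested, at a threshold of 0.05, two-sided. SE was taken from the log2 fold change and its F statistic. Ratios, sums and shares of TPM were compared with exact two-sided permutation tests. Intervals for low counts are 95% exact intervals and cover counting error only, since copies made by PCR are not independent molecules.

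The alternatives were DESeq2 1.42.0, upper-quartile and RLE scaling, all genes kept, a minimum of 1 CPM in 3 libraries, limma 3.58.1 on log2(TPM + 1) and log2(TPM + 0.1), voom with group weights, groups fitted in pairs, the replicate number as a block, genes of small RNA removed, FPKM, counts per effective length, and each library left out. Rescaling TPM after removal of 2520 small RNA genes, and alternatives for the COL4A5 and COL4A6 ratio and share, were chosen after seeing the data, as was leaving COL4A3 out of counts between lines. The members and gene lists were chosen with earlier results of these data known. All 6 members were named. Lists gave values for at most the 6 genes with the smallest p per list and line, and likeness gave 5 genes each, among those whose log2 CPM averaged 3 or more. Some genes that these rules picked are not reported here. Replicate libraries of a group differed by more than counting error. The procedure was run on simulated data in which each gene had the same spread in every group. That simulation cannot check the test under the wider spread seen among the A549 3D libraries. Sequences came from RefSeq (GRCh38.p14) and were read by gene symbol. The hg19 coordinates are not used here, nor are protein sequences.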

Additional observations from a re-analysis of the deposited data

Results flagged for a closer look

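The 3D change differed between the lines for 5 of the 6 type IV collagen genes by a test of the difference itself (edgeR interaction term, A549 minus MDA-MB-231, log2 scale), where 29.3% of all genes were called higher and 26.7% lower. COL4A1 differed by −3.17 (edgeR adjusted p = 3.68e-09) and was lower in 3D in both lines. COL4A2 differed by −3.23 (edgeR adjusted p = 8.49e-09) and was also lower in 3D in both. COL4A4 differed by 0.76 (edgeR adjusted p = 0.00491), a call lost on log2(TPM + 1) (0.04, limma adjusted p = 0.814), on log2(TPM + 0.1) (0.44, limma adjusted p = 0.110) and after rescaling without small RNA (0.30, limma adjusted p = 0.0584). In MDA-MB-231 COL4A4 was under 1 TPM, where adding 1 shrinks a difference. COL4A5 differed by −1.78 (edgeR adjusted p = 1.07e-07). COL4A6 differed by −3.91 (edgeR adjusted p = 2.24e-09), and it was lower in 3D in A549 and higher in 3D in MDA-MB-231. Each group had 3 libraries, too few for a search for single stray libraries.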

How the results depend on the processing

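COL4A1, COL4A2 and COL4A6 in A549, and COL4A1, COL4A2, COL4A5 and COL4A6 in MDA-MB-231, kept direction and call for 3D against 2D under every alternative run, each left-out library included. On log2(TPM + 1) and log2(TPM + 0.1), 3 genes turned lower in A549 3D: COL4A3 at −0.14 and −0.25, COL4A4 at −0.23 and −0.33, and COL4A5 at −0.17 and −0.19. COL4A5 turned lower in A549 than in MDA-MB-231 in 3D at −0.37 and −0.40, and the COL4A3 difference between lines turned to −0.092 on log2(TPM + 1). The median of all genes was below 0 on these scales; the cause was not tested. List counts under the same 2 TPM scales were, in A549 3D, 0 and 0 higher (6 in the CPM fit) and 12 and 11 lower (7) for folding, 2 and 2 higher (7) and 9 and 9 lower (3) for export, 5 and 4 lower (2) for crosslinking, and on log2(TPM + 0.1) 4 higher (7) for other basement membrane genes. In MDA-MB-231 3D they were 4 and 4 lower (2) for crosslinking and 4 and 3 higher (7) for other basement membrane genes. After rescaling without small RNA, export had 6 lower in A549, and in MDA-MB-231 crosslinking had 4 lower, other basement membrane genes 4 higher and degradation 7 higher (11). With voom and group weights, degradation had 3 lower (5) in A549. The summed difference, in log2, was −2.19 with FPKM for A549 3D against 2D (TPM −2.43), −0.74 for MDA-MB-231 3D against 2D (TPM −0.92), −0.23 for A549 against MDA-MB-231 in 3D (TPM −0.99, exact permutation p = 0.4 with FPKM) and 1.22 in 2D (TPM 0.52). Replicate numbers did not pair the libraries, as correlations of same-numbered deviations were between −0.07 and 0.10. With the replicate block, 4 members were called in A549 and 5 in MDA-MB-231, as without it, and COL4A1 in A549 was at −5.15. In MDA-MB-231, COL4A3 had at most 6 counts in any library, which limits the precision of its values there. Its difference between lines, 1.67 (edgeR adjusted p = 0.0651) and 2.13 without the first MDA-MB-231 2D library (edgeR adjusted p = 0.0188), rests on these counts and is not read.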
